A study of Eublepharis macularius with 23 samples.

Results

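The comparison is that of 3 heterozygous (Het1, Het2 and Het3) with 2 wild-type (WT1 and WT2) dorsal skin samples of leopard gecko (*Eublepharis macularius*) embryos carrying 1 or 0 copies of the Hypome 1 allele. These 5 libraries are part of 23 in the series, and the genes described are the 16522 of 22064 that had at least 10 counts in at least 2 of the 5. Hypome 1 is a hypomelanistic morph, inherited as a recessive trait at 1 locus, and the comparison asks whether a single copy of the allele goes with a difference in skin expression, and which genes differ between embryos of the same genotype. Each library was made from the polyA RNA of the back skin of 1 embryo, taken on embryonic day 40. The 4 homozygous embryos (Hom1 to Hom4) of the same crosses entered the fit and served as the other end of the dosage scale.

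All these embryos came from heterozygous parents of a single breeding pair, so the wild-type samples are siblings of the carriers and share their background, and the differences between the samples are those between individual embryos of 1 family. The embryos were not sexed. The sampling year, as given in the study's library names, was shared by Het1 and Het2 with no other embryo. WT1 and Het3 shared theirs with Hom2 and Hom3, and WT2 shared its year with Hom1 and Hom4. WT1 and Het3 are thus the only wild-type and heterozygous libraries that share a year. The genotype was not read from the count data. It rests on fixed variants in Sanger-sequenced fragments amplified with the primers below, whose names carry their position on Scaffold 3 of the study's assembly of a wild-type-coloured individual. They are shown because they define the groups compared. The first pair lies just before the mapped interval described below and the second within it, so the genotype beyond the second pair was not read directly with them. The forward and reverse primers at 169037188 and 169037963 lie 48063 and 47288 bases before *CHORDC1*, and those at 173033953 and 173034471 lie 402856 and 402338 bases before *DLG2*, all outside annotated genes.
H1_C3-169037188-F: aggcaggggaacaagaaaaga
H1_C3-169037963-R: agaaagccataggattggggg
H1_C3-173033953-F: gatctggctgctttcaatcgg
H1_C3-173034471-R: cgactctcaaaagctcatgcc

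Melanin is made in the melanosomes of melanophores, the dark pigment cells of reptile skin. Tyrosinase (*TYR*) catalyses the first step, TYRP1 and DCT act after it, PMEL forms the fibrils on which melanin is laid down, and RAB38 helps to deliver the enzymes to the melanosome. The epidermis above is built by keratinocytes, which express keratins and lipid enzymes as they form the barrier. Expression is given below as CPM, each gene's counts relative to the size of its library, scaled between libraries by the TMM method, and a fold change is the log2 ratio of heterozygous to wild-type samples.

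The 5 libraries held 32455975 to 52017277 counts, and 15787 to 16379 genes had at least 10 counts in each. Between 58.1% and 61.6% of their counts from 10 to 2000 were even numbers. The totals lie above the range of reads that the paper gives for its leopard gecko libraries. Whether each read of a pair was counted on its own is not known here, so counts may not be separate fragments. In a principal component analysis of the 500 most variable genes, the first component took 65.0% of the variance and separated Het2, at -24.6, from the other 4 libraries, at 0.905 to 12.6. The second took 21.5% and ran from WT1 at -13.2 to Het3 at 9.69. The genotypes overlapped on the first component. On the second, both wild-type libraries lay below the heterozygous ones, with WT2 at 0.04 next to Het1 at 1.43 and Het2 at 2.00. Het2 stood apart from the other libraries. The study reports that RNA integrity varied among the samples of this morph. The RNA integrity number entered an alternative fit of the genotype comparison, but its values per library are not given here. Whether RNA quality has a part in the place of Het2, or in other differences between embryos of the same genotype, was not tested.

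Heterozygous skin was not told apart from wild-type skin as a whole. The root mean square distance between the log2 CPM of 2 embryos was 0.71 for WT1 and WT2, 0.79 for Het1 and Het2, 0.64 for Het1 and Het3 and 0.90 for Het2 and Het3, against 0.60 to 0.89 for the 6 pairs of different genotype. The mean over pairs of different genotype was 0.71 and that over pairs of 1 genotype 0.76, a difference of -0.05 in the exact permutation test over the 10 ways to label 2 of 5 libraries (2-sided p = 0.4, where 0.1 is the smallest the test can give). The closest pair was WT2 and Het3, at 0.60, and the most distant Het2 and Het3, at 0.90. Between 1310 and 2421 genes differed by at least 2-fold between any 2 embryos.

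None of the 16522 genes passed an adjusted p of 0.05 (edgeR, quasi-likelihood test), which is 0% of those tested. At an unadjusted p under 0.05 there were 254 genes (1.54%), 146 with a higher mean (0.884%) and 108 with a lower mean (0.654%) in heterozygous samples. The log2 fold change was above 0 for 8405 genes (50.9%), and its median over all genes was 0.00. DESeq2 on the 9 libraries likewise called no gene, with 329 genes at an unadjusted p under 0.05, and on the 5 libraries alone it called 2 (0.0121%). The 95% interval of the fold change lay within -1 and 1 on the log2 scale, that is within a 2-fold difference either way, for 10968 genes (66.4%), and for 15 genes (0.0908%) it lay wholly beyond these bounds. All 3 heterozygous samples lay above both wild-type samples for 1128 genes (6.83%), and below both for 975 (5.90%).

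The genes with the smallest unadjusted p among those whose genotypes did not overlap and whose mean was at least 1 CPM are given as the nearest candidates, 8 in each direction, with an adjusted p of 1 for each in edgeR. *KLRF1-like* (*LOC129334610*, Scaffold 7, 143364244 to 143368665, 5 exons), related to the lectin-like receptors of killer lymphocytes, stood at 4.83 and 3.67 CPM in WT1 and WT2 and at 13.1, 13.7 and 8.44 CPM in Het1, Het2 and Het3. The log2 fold change was 1.47 ± 0.33 (SE, unadjusted p = 0.00136 in edgeR), the exact permutation p was 0.1, and DESeq2 on the 5 libraries called it (adjusted p = 0.0282). The homozygous embryos stood at 13.5, 9.27, 6.94 and 7.74 CPM, so its heterozygous levels lay within or just above the homozygous ones. Its SD on the log2 scale was 0.42 in the homozygous embryos. In the 3 heterozygous embryos of Hypome 3, another morph of the series, it was 1.60, so *KLRF1-like* also varied between embryos of 1 genotype.

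*PLA2inhib-B-like* (*LOC129342788*), a phospholipase A2 inhibitor gene on Scaffold 15 at 50815666 to 50821084, stood at 1.65 and 1.24 CPM in wild-type and at 10.1, 3.09 and 5.72 CPM in heterozygous samples (log2 fold change of 2.13 ± 0.49, SE). On the same scaffold, 85.6 kb further on, *PINLYP-like* (*LOC129342834*), whose human relative encodes a phospholipase A2 inhibitor with a LY6/PLAUR domain, went the other way. It stood at 59.6 and 38.2 CPM in wild-type and at 13.2, 16.7 and 28.7 CPM in heterozygous samples (log2 fold change of -1.33 ± 0.32, SE, unadjusted p = 0.00202 in edgeR). The homozygous samples stood at 5.02 to 9.25 CPM for the first and 35.6 to 55.1 CPM for the second, so *PINLYP-like* was lower in the carriers than in either homozygous genotype. In the heterozygous Hypome 3 embryos the SD on the log2 scale was 1.63 for *PLA2inhib-B-like* and 0.46 for *PINLYP-like*.

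Of the other genes with a higher mean in heterozygous samples, the pattern differed between embryos. *MOB3C*, an activator of kinases, was alike in the 3 heterozygotes, at 3.39, 3.41 and 2.83 CPM, against 1.59 and 1.48 CPM in wild-type. *LOC129334296*, which no table names, stood at 26.6 and 30.1 CPM in Het1 and Het2 but at 4.50 CPM in Het3, against 4.01 and 4.39 CPM in wild-type. *IGLON5*, a cell adhesion gene, stood at 3.30 and 3.59 CPM in Het1 and Het2 and at 0.889 CPM in Het3, against 0.682 and 0.782 CPM in wild-type.

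For these last genes, then, 1 heterozygote lay near the wild-type level. *CEP78-like* (a centrosome gene) and *EPB41L4A* (of the band 4.1 family) had the same order, with Het3 the lowest heterozygote, at 2.39 against 5.56 and 7.60 CPM and at 17.1 against 23.8 and 27.0 CPM. *LOC129333807*, also without a name, stood at 61.3, 76.8 and 62.2 CPM in heterozygous and at 49.3 and 49.0 CPM in wild-type samples (log2 fold change of 0.44 ± 0.14, SE).

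Of the genes with a lower mean, *ANXA9*, an annexin, stood at 18.1 and 16.8 CPM in wild-type and at 11.0, 7.75 and 12.6 CPM in heterozygous samples (log2 fold change of -0.74 ± 0.20, SE). *HAPLN3*, a link protein of hyaluronan, stood at 37.6 and 39.7 CPM against 25.5, 25.6 and 31.5 CPM. *SMYD3*, a lysine methyltransferase, stood at 19.0 and 19.1 CPM against 13.5, 10.5 and 13.4 CPM. In these 3 genes the wild-type samples were close to each other and the heterozygotes lower by less than 2-fold on average.

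*SPART*, which encodes spartin, stood at 23.8 and 22.1 CPM in wild-type and at 12.9, 13.9 and 17.5 CPM in heterozygous samples. *NNMT-like* (*LOC129342704*), related to nicotinamide N-methyltransferase, stood at 2.67 and 3.00 CPM against 0.973, 1.20 and 1.69 CPM. *LOC129328833*, which has no name, stood at 94.2 and 104 CPM against 63.2, 73.5 and 82.7 CPM, and its homozygous samples, at 65.8 to 70.7 CPM, lay among the heterozygous ones. In the heterozygous Hypome 3 embryos the SD on the log2 scale was 1.32 for *NNMT-like*, 0.26 for *SPART* and 0.06 for *LOC129328833*.

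*NEU3-like* (*LOC129326127*, Scaffold 3, 181743764 to 181750643, 3 exons), related to a ganglioside sialidase, had the largest difference of the 16. It held 121 and 158 counts in WT1 and WT2, 10 in Het1 and none in Het2 or Het3, and 87, 139 and 114 counts in Hom1, Hom2 and Hom3 but none in Hom4. It was thus near 0 in 4 of the 9 embryos, among them 1 homozygote. The gene starts 4.6 Mb beyond the end of *GAB2*, the last gene of the mapped interval. *DGAT2*, an enzyme of triglyceride synthesis that starts 2.24 Mb beyond it, was chosen after its values were seen, and its mean was under 1 CPM. It stood at 1.65 and 1.83 CPM in wild-type, at 0.440, 0.1003 and 0.444 CPM in heterozygous and at 2.53, 4.78, 2.39 and 3.28 CPM in homozygous samples (log2 fold change of heterozygous over wild-type of -2.38 ± 0.55, SE, with an unadjusted p of 0.00155 and an adjusted p of 1 in edgeR).

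In 12 of these 16 genes Het3 was the heterozygote nearest to the wild-type mean, and Het3 shares its sampling year with WT1. Het1 and Het2 are the only libraries of their year. Any fit with the year as a factor therefore rests on Het3 as its single heterozygote. In that fit, the log2 fold changes of *LOC129334296*, *IGLON5*, *CEP78-like*, *EPB41L4A* and *HAPLN3* came to 0.13, 0.35, 0.40, 0.27 and -0.28. Those of *PINLYP-like*, *ANXA9*, *LOC129328833* and *NNMT-like* came to -0.81, -0.47, -0.20 and -0.67, and that of *NEU3-like*, with its libraries at 0, to -10.52. *PLA2inhib-B-like* and *KLRF1-like* came to 2.02 and 1.05, and the other 4 genes moved by less than 1.5 times. Without Het3, edgeR called 3 genes: *ADISSP* (1.84 ± 0.17, SE, adjusted p = 0.0132), *LOC129334296* (2.75 ± 0.23, SE) and a long non-coding RNA gene without a name, which was lower (-7.54 ± 0.71, SE). *ADISSP*, a secreted adipose signalling protein, stood at 80.3 and 89.6 CPM in Het1 and Het2, at 22.8 CPM in Het3, at 21.6 and 25.7 CPM in wild-type and at 17.2 to 21.9 CPM in the homozygous samples. The 2 embryos with the high level share a year and no other library does, so embryo, year and genotype cannot be told apart for these genes. With the year as a factor, and so with Het3 as the only heterozygote, the fold change of *ADISSP* was -0.05. That of the non-coding RNA gene was 0.05, so both changed sign.

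**Figure D1:**
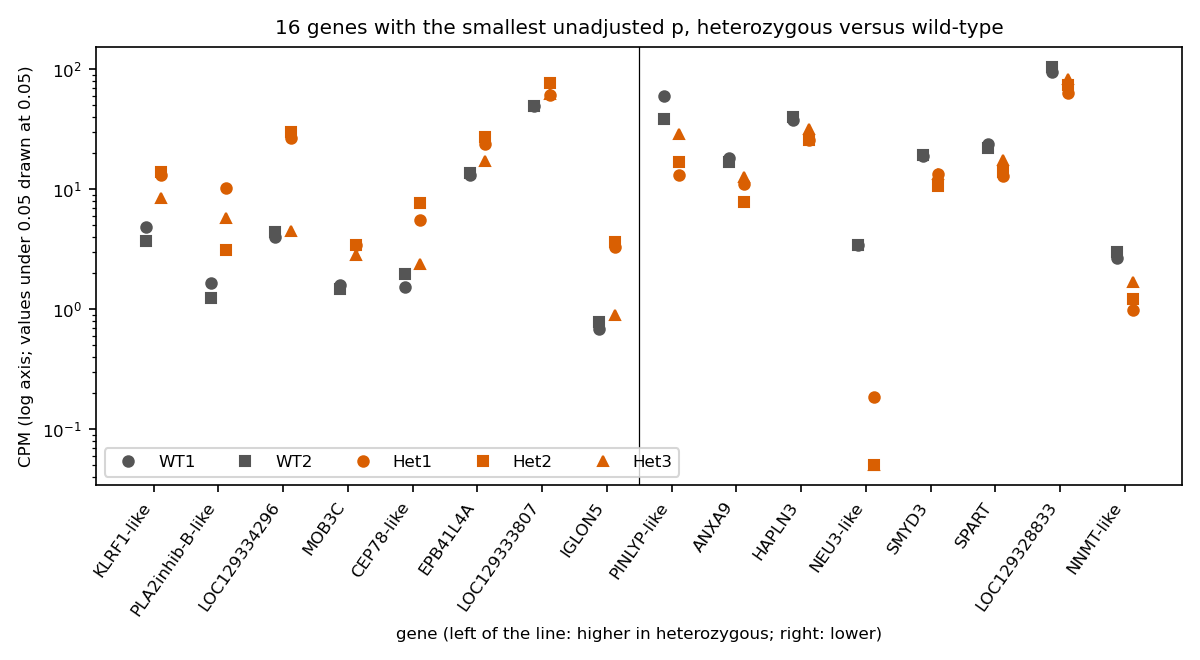
Levels in CPM (log axis) of the 16 genes with the smallest unadjusted p in the comparison of heterozygous (orange) with wild-type (grey) embryos, 1 marker per embryo, with values under 0.05 CPM drawn at 0.05. *LOC129334296* and *IGLON5* are high in Het1 and Het2 and near the wild-type level in Het3 (4.50 and 0.889 CPM), while *MOB3C* is alike in the 3 heterozygotes.

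The mapped interval reaches from *CHORDC1* to *GAB2* on Scaffold 3 (169085251 to 177146708) and holds 51 annotated genes, of which 29 had enough counts. None passed an adjusted p of 0.05, and 2 had an unadjusted p under 0.05 (1 higher, 1 lower), against 1.54% of all genes. Of the 29, 16 had a log2 fold change above 0 and 13 below, with a median of 0.05 against 0.00 over all genes. In 4 of the 29 all heterozygous samples lay above the wild-type ones (6.83% of all genes) and in 4 below (5.90% of all genes).

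*PRCP* (174254820 to 174303144, 9 exons), a lysosomal peptidase that can cut the melanocyte-stimulating hormone alpha-MSH, stood at 11.7 and 17.0 CPM in WT1 and WT2 and at 19.7, 23.9 and 20.7 CPM in Het1, Het2 and Het3. The genotypes did not overlap (log2 fold change of 0.58 ± 0.20, SE, 95% interval 0.12 to 1.03, with an unadjusted p of 0.0184 and an adjusted p of 1 in edgeR and an exact permutation p of 0.1). The 4 homozygous samples stood at 37.0, 34.4, 26.5 and 29.3 CPM, above every heterozygous one. On the log2 scale the heterozygous level lay 0.00 ± 0.16 (SE) from the midpoint, the mean of the wild-type and homozygous log2 levels. That value shares its samples with the fold change. The fold change came to 0.33 without WT1 and to 0.87 without WT2, and between WT1 and Het3, which share a year, the difference was 0.82.

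*DLG2* (173436809 to 173988436, 24 exons), a scaffold protein best known from synapses, went the other way. It stood at 18.2 and 16.6 CPM in wild-type and at 11.7, 6.90 and 12.9 CPM in heterozygous samples (log2 fold change of -0.73 ± 0.24, SE, with an unadjusted p of 0.0123 and an adjusted p of 1 in edgeR). Het2 was the lowest, and without it the fold change was -0.51. The homozygous samples, at 12.6 to 15.7 CPM, lay between the genotypes or within the heterozygous range.

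*TYR* (169457340 to 169516748, 6 exons) stood at 36.8 and 38.7 CPM in wild-type and at 25.5, 21.4 and 38.4 CPM in heterozygous samples, so Het3 reached the wild-type level and Het1 and Het2 did not. Its log2 fold change was -0.41 ± 0.40 (SE, 95% interval -1.31 to 0.49, unadjusted p = 0.331 in edgeR), and -0.07 with the year as a factor. The homozygous samples ranged from 16.6 to 48.7 CPM, on both sides of the other genotypes.

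*RAB38* (170165100 to 170210850, 3 exons) stood at 16.8 and 18.3 CPM in wild-type and at 11.4, 13.4 and 13.5 CPM in heterozygous samples, without overlap (log2 fold change of -0.46 ± 0.27, SE, unadjusted p = 0.123 in edgeR). Its homozygous samples reached below and above both, up to 21.1 CPM in Hom3. *CTSC*, the lysosomal protease cathepsin C (170105833 to 170141333, 7 exons), stood at 48.0 and 51.9 CPM in wild-type and at 59.9, 48.8 and 73.1 CPM in heterozygous samples, which overlapped (0.28 ± 0.16, SE, and 0.12 without Het3 and 0.55 with the year as a factor). All homozygous samples were higher, at 86.4 to 90.7 CPM, and the heterozygous level lay -0.13 ± 0.13 (SE) from the midpoint. *CTSC* encloses an unnamed gene on the same strand, so its counts are uncertain.

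**Figure D2:**
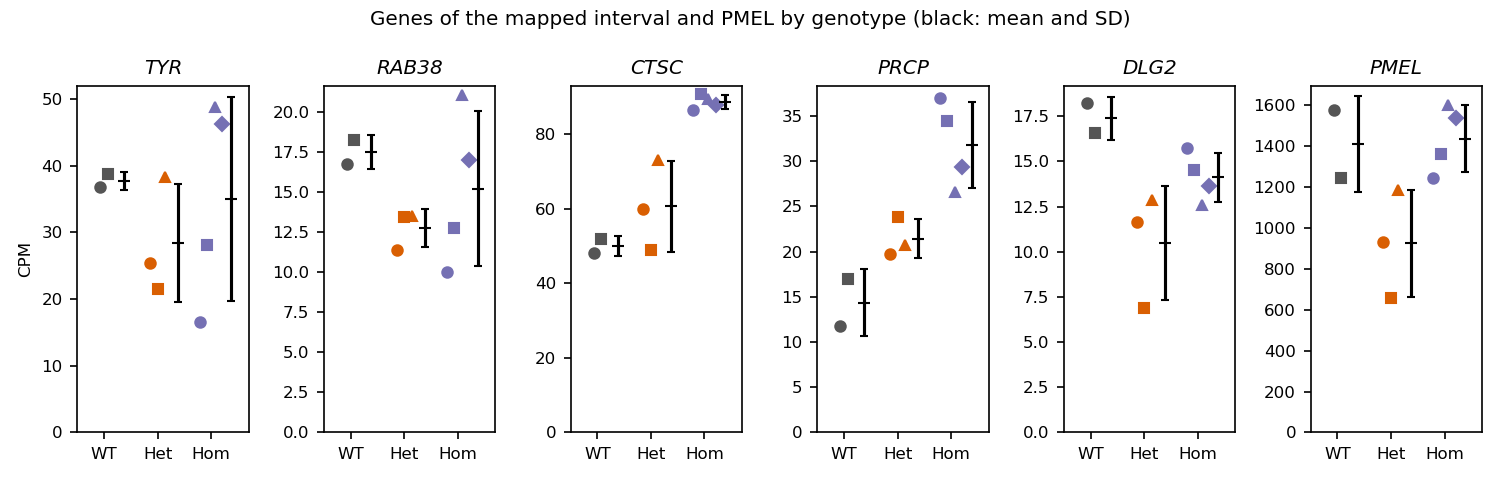
Levels in CPM of 5 genes of the mapped interval and *PMEL* in the 2 wild-type (WT), 3 heterozygous (Het) and 4 homozygous (Hom) embryos, 1 marker per embryo, with black bars for the mean and SD. *PRCP* is stepped, from 11.7 to 17.0 CPM in WT and 19.7 to 23.9 in Het to 26.5 to 37.0 in Hom. *PMEL*, *DLG2*, *TYR* and *RAB38* have their lowest mean in heterozygous embryos.

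Among genes at large, no departure of the heterozygotes from the midpoint of the wild-type and homozygous levels passed an adjusted p of 0.05 in edgeR (0% of 16522), although 1334 genes (8.07%) had an unadjusted p under 0.05. DESeq2 on the 9 libraries called 44 (0.266%), 13 of them above and 31 below the midpoint. Het1 and Het2 share their sampling year with no other library, so for them year and genotype cannot be told apart in this contrast either. The genes named here were chosen after their values were seen. *B3GALT5-like* (*LOC129326753*), a galactosyltransferase gene, stood at 4.12 and 5.85 CPM in wild-type, at 6.62, 6.40 and 4.83 CPM in heterozygous and at 30.1, 34.4, 42.0 and 36.0 CPM in homozygous samples. It had the smallest p of this contrast (-1.16 on the log2 scale, with an unadjusted p of 6.70e-05 and an adjusted p of 0.618 in edgeR). DESeq2 on the 9 libraries called it (adjusted p = 7.86e-06), and also *AHRR* and *NES*, described next (adjusted p = 0.0115 and 0.00243 in DESeq2).

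In *B3GALT5-like*, then, the carriers overlapped the wild-type samples and lay far below the homozygous ones. *AHRR*, the repressor of the aryl hydrocarbon receptor, also overlapped in these genotypes but was lower in homozygous samples, at 5.37 and 7.26 CPM in wild-type, 4.62, 5.42 and 4.19 CPM in heterozygous and 0.615 to 1.02 CPM in homozygous samples. *NES*, the intermediate filament nestin, was instead highest in the carriers, at 53.3, 71.3 and 56.8 CPM, against 40.3 and 48.8 CPM in wild-type and 21.9 to 31.7 CPM in homozygous samples. Its log2 fold change of heterozygous over wild-type was 0.44. With the year as a factor, and so with Het3 as the only heterozygote, it was 0.33.

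Melanophore genes had mostly lower means in heterozygous than in wild-type samples. Their homozygous means, given with single genes below, lay on either side of the wild-type ones. Of 18 in the list 17 had enough counts. Of these, 15 had a log2 fold change below 0 and 2 above, with a median of -0.29 against 0.00 over all genes, and in 7 all heterozygous samples lay below the wild-type ones (5.90% of all genes). Their summed level was 3187 and 2853 CPM in WT1 and WT2 and 2188, 1606 and 2746 CPM in Het1, Het2 and Het3. *PMEL* and *GPNMB*, given below, made up most of each sum. In bulk skin fewer melanophores and less RNA per melanophore cannot be told apart. The median was -0.22 without Het2. None passed an adjusted p of 0.05 and 1 had an unadjusted p under 0.05.

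That gene was *PMEL*, at 1577 and 1247 CPM in wild-type and at 930.4, 659.9 and 1186 CPM in heterozygous samples (log2 fold change of -0.61 ± 0.24, SE, with an unadjusted p of 0.0294 and an adjusted p of 1 in edgeR and an exact permutation p of 0.2). The homozygous samples, at 1244 to 1603 CPM, lay between the wild-type samples, just below the lower of them or above both. Het1 and Het2 were the lowest, and Het3 was just below WT2. Without Het2 the fold change was -0.42, and with the year as a factor -0.33.

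*DCT*, dopachrome tautomerase, stood at 156 and 125 CPM in wild-type and at 89.2, 87.4 and 122 CPM in heterozygous samples. *TYRP1* stood at 48.2 and 49.2 CPM against 41.5, 17.3 and 45.7 CPM, and *GPNMB*, a relative of *PMEL*, at 895 and 923 CPM against 713, 363 and 941 CPM. In *TYRP1* and *GPNMB* Het2 was by far the lowest embryo. *MLANA*, a melanosome protein, and *SLC45A2*, a melanosome transporter, were lower by less and without overlap, at 84.9, 80.1 and 80.1 CPM against 93.1 and 95.2 CPM and at 84.4, 79.7 and 88.6 CPM against 109 and 93.9 CPM. In homozygous over wild-type samples the log2 fold change was 0.25 ± 0.38 (SE) for *TYRP1* and 0.34 ± 0.37 for *GPNMB*. It was 0.20 ± 0.13 for *MLANA*, 0.04 ± 0.14 for *SLC45A2* and -0.26 ± 0.36 for *DCT*.

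*MITF*, the master transcription factor of the lineage, stood at 30.4 and 36.8 CPM in wild-type and at 31.7, 28.5 and 29.9 CPM in heterozygous samples. *EDNRB*, the endothelin receptor, was 54.7, 109 and 67.0 CPM in heterozygous samples, on both sides of 73.2 and 80.3 CPM in wild-type. In homozygous over wild-type samples the log2 fold change was 0.16 ± 0.13 (SE) for *MITF* and -0.66 ± 0.24 for *EDNRB*. Het2 was the lowest of the 5 embryos for 11 of the 17 genes, against 29.9% of all genes. Het3 stood above Het1 and Het2 for 10, against 5565 of all 16522 genes. Between WT1 and Het3 alone the median difference was -0.13, with 13 of 17 genes lower in Het3, while 49.8% of all genes were higher in Het3. Markers of Schwann cells, another derivative of the neural crest, were also lowest in Het2 in 6 of 9 genes. Whether that has a part in the melanophore values was not tested.

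Of the 505 pigmentation-associated symbols that the study compiled, 306 were in the table and 293 had enough counts. None passed an adjusted p of 0.05 and 1, *PMEL*, had an unadjusted p under 0.05, against 1.54% of all genes. The list's median log2 fold change was -0.02, with 133 genes above 0 and 160 below. All heterozygous samples lay above the wild-type ones for 17 of the 293 (6.83% of all genes) and below for 26 (5.90% of all genes). *DTNBP1*, *FOXD3* and *EDA* were next by p, at 0.30 ± 0.14, -0.50 ± 0.24 and 0.37 ± 0.19 (log2 fold change and SE). The share with an unadjusted p under 0.05 was thus no higher than among all genes.

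Some genes differed widely between embryos of 1 genotype. Over the 11474 genes with a mean of at least 5 CPM, the SD within genotype, pooled over the 2 genotypes with 3 degrees of freedom, had a median of 0.19 on the log2 scale, and 197 genes (1.72%) had an SD of at least 1. The 100 genes with the largest SD, which were chosen on this measure, had a median of 1.76, and of 1.12 without Het2, when 41 of the 100 were kept. Het2 was the embryo farthest from the median of the 5, and below it, in 58 of these 100 genes, against 23.3% of all genes at that level. Het3 was the farthest and above in 26, against 6.15% of all genes at that level, and no other embryo in more than 8 in either direction.

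The first group was of genes low in Het2, among them keratin and barrier genes of the epidermis. In bulk skin the cells that express the others were not determined. The 4 genes annotated as *SHEMATRIN2-like*, after a shell matrix protein of molluscs, lie within 7769624 to 8053152 on Scaffold 1. The most extreme, *LOC129325657*, stood at 442 and 79.0 CPM in WT1 and WT2, at 174 and 331 CPM in Het1 and Het3 and at 0.1003 CPM in Het2, with an SD of 5.13. The other 3 stood at 124 to 1460.0 CPM in the other 4 embryos and at 0.251, 6.90 and 17.8 CPM in Het2. In the homozygous embryos the 4 genes stood at 205 to 5782 CPM.

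Het2 thus stood far below every other embryo of the 9 for these genes. *KRT19-like* (*LOC129338458*), a type I keratin, stood at 1247, 653, 844 and 999.8 CPM in WT1, WT2, Het1 and Het3 and at 7.40 CPM in Het2. *FADS1-like* (*LOC129325027*), a fatty acid desaturase, stood at 161, 79.3, 103 and 161 CPM and at 0.702 CPM in Het2. *AMBN*, known from tooth enamel in mammals, stood at 339.8, 184, 174 and 303 CPM and at 5.89 CPM in Het2.

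Among the barrier genes, Het2 was the lowest of the 5 in 13 of 17, against 33.5% of genes with a mean of at least 5 CPM. Their median log2 fold change was -0.28, but 0.03 without Het2, -0.06 without WT1, -0.44 without WT2, -0.47 without Het3 and 0.13 with the year as a factor. *ACER1*, an alkaline ceramidase, stood at 79.1, 30.1, 52.6 and 62.2 CPM in WT1, WT2, Het1 and Het3 and at 3.16 CPM in Het2. *CERS3*, which makes the ceramides of the barrier, stood at 154, 100.3, 138 and 130.3 CPM and at 24.5 CPM in Het2. *EVPL*, the cornified envelope protein envoplakin, differed little, at 483 to 568 CPM in the 5 embryos, and so did *KLF4*, a transcription factor of the barrier, at 134 to 155 CPM.

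The barrier genes were thus not all low in Het2. Of 33 keratin genes with enough counts 20 were lowest in Het2, against 29.9% of all genes. Of the 7 basal keratinocyte markers with enough counts, 4 were also lowest in Het2. Their sum was 1402 to 1491 CPM in the 5 embryos, and 1427 CPM in Het2. *KRT10-like* (*LOC129338405*), of a keratin family that marks cells above the basal layer, stood at 0.478 CPM in WT2 and 0.251 CPM in Het2, at 5.40, 14.1 and 14.2 CPM in Het1, Het3 and WT1, and at 89.8 to 2002 CPM in the homozygous embryos. Genes of sterol synthesis were likewise lowest in Het2 in 10 of 15, against the same 29.9% of all genes.

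The second group was of skeletal muscle, and had another order of embryos. The 19 muscle markers with enough counts summed to 540 and 961 CPM in WT1 and WT2 and to 2336, 386 and 4481 CPM in Het1, Het2 and Het3. All 19 had a log2 fold change above 0, with a median of 1.70 against 0.00 over all genes, but none had an unadjusted p under 0.05. Het2 was the lowest embryo in 11, against 29.9% of all genes. Het3 was the highest in 18, against 18.1% of all genes. The median came to 0.88 without Het3 and to 0.05 with the replicate number as a block. With the year as a factor, a fit that rests on Het3 among the heterozygotes, it came to 3.87. *ACTA1*, skeletal alpha-actin, stood at 161 and 278 CPM in wild-type and at 683, 100.3 and 1213 CPM in heterozygous samples (1.60 ± 2.12, SE).

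Of the 5 embryos, the heterozygotes thus held both the highest and the lowest summed muscle level. *MYO4-like* (*LOC129328109*), a fast myosin gene, stood at 16.7, 125, 433, 16.6 and 1052 CPM in WT1, WT2, Het1, Het2 and Het3. *ATP2A1*, the calcium pump of fast muscle, stood at 16.8, 39.6, 84.9, 7.93 and 312 CPM, and at 229, 0.690, 0 and 3.74 CPM in Hom1 to Hom4. Erythroid markers, 7 with enough counts, summed to 61.7 and 87.9 CPM in wild-type and 144, 143 and 113 CPM in heterozygous samples, and in 5 of 7 all heterozygous samples lay above the wild-type ones (6.83% of all genes). Of the 7, 1, the red cell anion exchanger *SLC4A1*, had an unadjusted p under 0.05, against 1.54% of all genes (0.84 ± 0.35, SE, adjusted p = 1 in edgeR). Whether muscle or blood in the dissected skin has a part in the fold changes above was not tested.

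**Figure D3:**
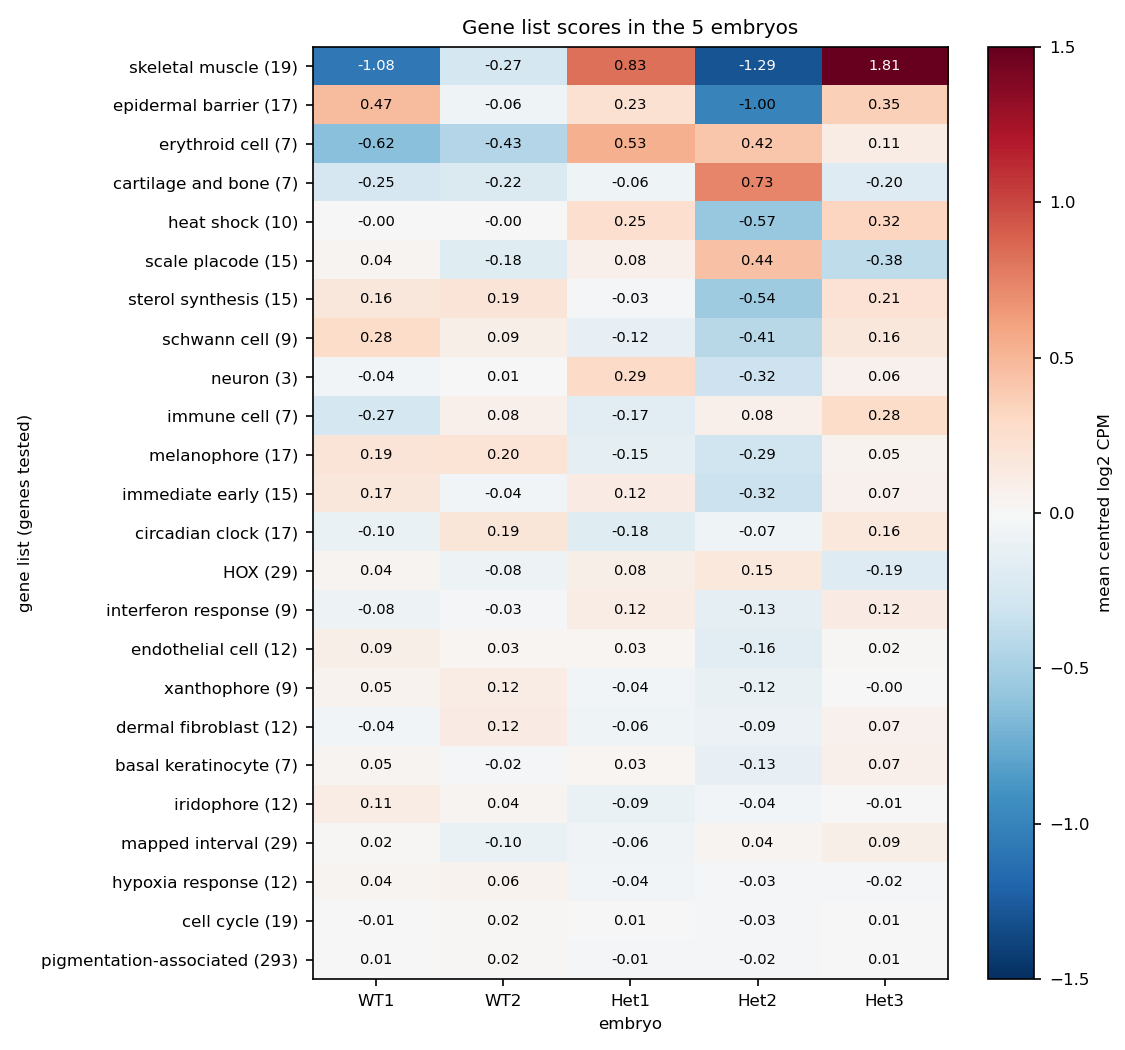
Mean of the log2 CPM, each gene centred over the 5 embryos, for each gene list (rows, with the number of genes tested) in each embryo (columns). Skeletal muscle runs from -1.29 in Het2 to 1.81 in Het3, and the epidermal barrier list is lowest in Het2, while the cell cycle list stays between -0.03 and 0.02.

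Another group of genes was at or near 0 in some embryos and well expressed in others. By a rule chosen after the data were seen, at most 0.5 CPM in 1 embryo and at least 5 CPM in another, 36 genes were of this kind. In 16 of them Het2 alone was low, among them the keratin gene *KRT5-like* and *SHEMATRIN2-like* genes, and in 4 WT1 alone. In none of the 36 were both wild-type embryos low and all heterozygotes not, or the reverse. The rule leaves out genes of lower level that had such a split. *NEU3-like*, described above, stood at 3.44 and 3.43 CPM in WT1 and WT2 and at 0.184, 0 and 0 CPM in Het1, Het2 and Het3.

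*LOC129339494* (Scaffold 1, 132805666 to 132810410, minus strand) and *LOC129332691* (Scaffold 8, 111333249 to 111337556, plus strand), protein-coding genes without a name, had the largest SDs within genotype of the genes at a mean of at least 5 CPM, at 5.43 and 5.16. *LOC129339494* stood at 0, 41.5, 0.110, 34.6 and 41.7 CPM in WT1, WT2, Het1, Het2 and Het3, and at 0, 45.5, 46.3 and 0.154 CPM in Hom1 to Hom4. *LOC129332691* stood at 0, 31.3, 0.110, 24.0 and 30.5 CPM in the 5 embryos and at 0, 25.7, 33.3 and 0.205 CPM in the homozygous ones. Another such gene, on Scaffold 6 (27550551 to 27555419), was on in the same embryos, at 10.1 to 13.4 CPM.

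The 3 genes, on 3 scaffolds, were therefore on in the same 5 of 9 embryos, with 1 wild-type, 2 heterozygous and 2 homozygous embryos among them, and held at most 8 counts in the other 4. Where on, the ratio of the second to the first was 0.565 to 0.754 and that of the third to the first 0.263 to 0.291. Reads shared between near-identical copies could not be checked in counts, so the place of origin is uncertain. In 3 heterozygous embryos of Hypome 3, another hypomelanistic morph of the series (16826633 to 21208295 counts per library), their SD was 3.63, 3.42 and 3.10.

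*UMPS*, an enzyme of pyrimidine synthesis, was low in Het1 and Het2, at 0.294 and 0.451 CPM, against 14.9, 6.54 and 7.11 CPM in WT1, WT2 and Het3 and 5.66 to 13.98 CPM in the homozygous embryos. *MRNIP*, a DNA repair gene, was on in WT2, Het1 and Het2, at 7.89, 13.98 and 16.003 CPM, and at 0.389 CPM or less in WT1 and Het3. It was also low in Hom1 to Hom4, at 0.341, 0, 0.111 and 0.871 CPM. *FAM172B-like* (*LOC129325585*) was low in Het1, at 0.422 CPM, and in Hom1, Hom2 and Hom3, at 0.410, 0.322 and 0.610 CPM, and at 30.0 to 82.4 CPM in the other 5 embryos. It overlaps *SENP7* on the opposite strand, and how strand was treated in counting is not known here, so its counts are uncertain. *ELMOD1* was on in Het1 alone, at 10.4 CPM, against 0.341 CPM at most in the other 8.

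**Figure D4:**
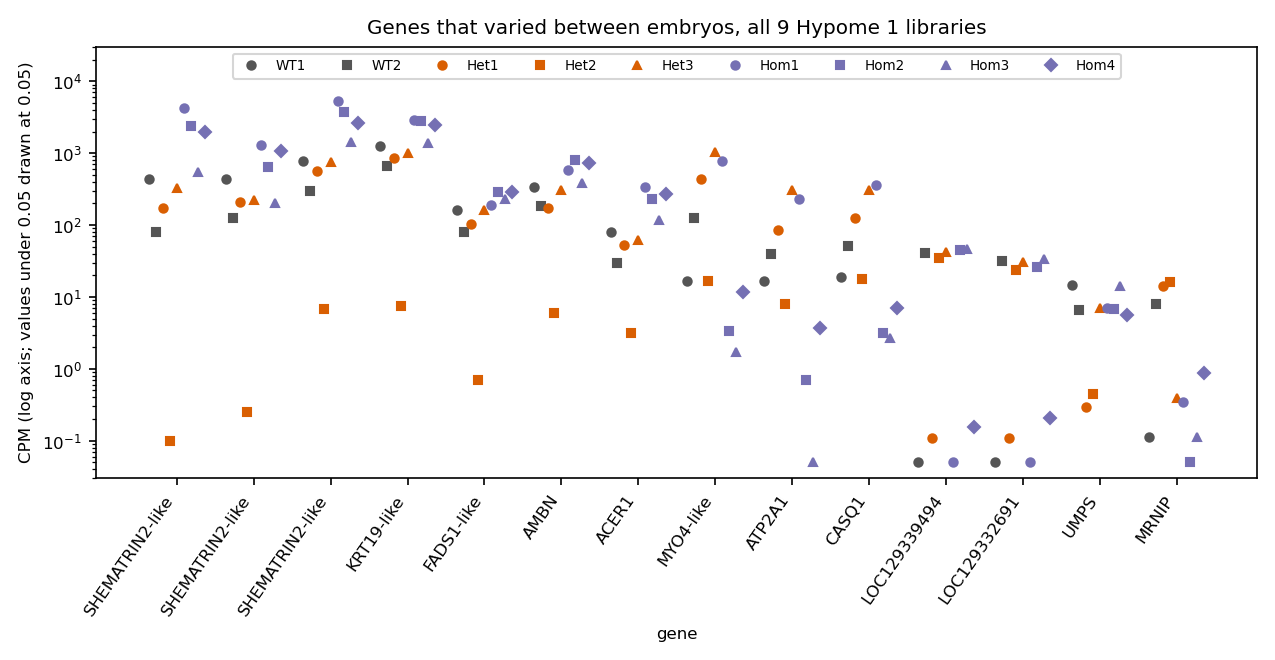
Levels in CPM (log axis) of 14 genes that varied between embryos in all 9 Hypome 1 libraries, 1 marker per embryo, with values under 0.05 CPM drawn at 0.05. Het2 (orange square) is far below the others for the genes at the left, from *SHEMATRIN2-like* to *ACER1*. Muscle genes spread in every genotype, and *LOC129339494* and *LOC129332691* are either near 0 or at 24.0 to 46.3 CPM.

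The genes that varied here also varied in embryos that had no part in choosing them. The 100 most variable genes had a median SD of 1.10 in the 4 homozygous Hypome 1 embryos, against 0.21 for all genes at that level, and of 1.92 in the 3 heterozygous Hypome 3 embryos, against 0.15. An SD of at least 1 was reached by 54 of the 100 in the first and by 88 in the second, against 130 and 217 of all 11474. *ATP2A1* had an SD of 2.25 here, 5.09 in the homozygous Hypome 1 and 2.51 in the Hypome 3 embryos, and *LOC129325657* (*SHEMATRIN2-like*) had 5.13, 1.24 and 4.83. Among the homozygous embryos *ATP2A1* was high in Hom1 alone. *UMPS* and *FAU-like* (*LOC129323804*, a relative of a ribosomal protein gene) were not variable in Hypome 3, with an SD of 0.17 and 0.05 against 2.01 and 2.54.

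**Figure D5:**
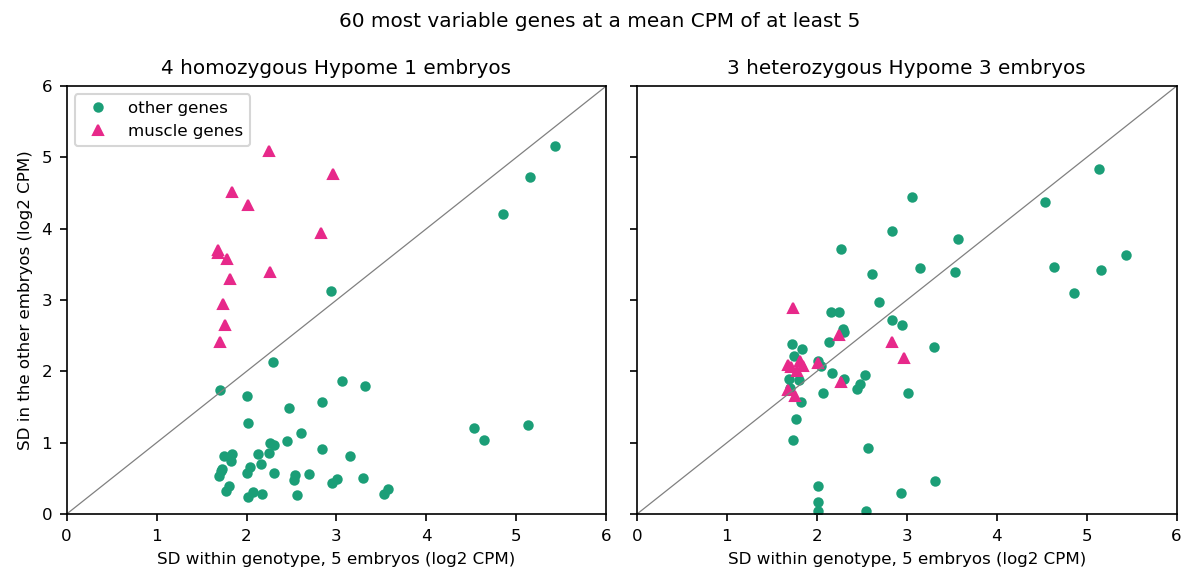
SD of the log2 CPM in the 4 homozygous Hypome 1 embryos (left) and the 3 heterozygous Hypome 3 embryos (right) against the pooled SD within genotype in the 5 embryos, for the 60 genes with the largest of the latter, with the line of equality. Muscle genes (triangles) have a larger SD in the homozygous embryos than here, such as 5.09 against 2.25 for *ATP2A1*, while most others have a smaller one. For *ATP2A1* the high homozygous level is that of Hom1 alone, at 229 CPM against 3.74 CPM or less in Hom2 to Hom4.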

How the data were processed

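The authors deposited raw counts of reads per gene in the dorsal skin libraries, aligned with STAR 2.7.10b to their own assembly and counted with featureCounts (Subread 2.0.6) on a lifted RefSeq annotation. Library kits were stranded, but whether counting used strand is not given in the sources used here. *NEB* is broken over 5 lines and was left out. The 3 wild-type columns of the Hypome 3 table match no sample and were not used. That table was scaled on its own and gave only SDs.

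Genes with at least 10 counts in at least 2 of the 5 heterozygous and wild-type libraries were fitted in all 9 Hypome 1 libraries with edgeR 4.0.16 (R 4.3.3; TMM, quasi-likelihood, a mean per genotype, 6 residual degrees of freedom), 2-sided, with Benjamini-Hochberg adjustment over all genes and a threshold of 0.05. The midpoint is the mean of the wild-type and homozygous levels on the log2 scale. SEs in edgeR were derived from the log2 difference and its F statistic. SDs and distances used log2 CPM with a prior count of 2, in Python 3.11.15. The fit was tested on simulated data. Samples were grouped by the genotype in the labels, and the p-values measure the spread between single embryos of 1 family. Years were joined to libraries by replicate number.

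Genes named are the 8 with the smallest p per direction at a mean of at least 1 CPM without overlap, the most variable at a mean of at least 5 CPM, *TYR*, *RAB38*, *PRCP*, *CTSC* and interval genes with an unadjusted p under 0.05, melanophore genes, and for other lists the members with the smallest p or largest SD. The members and the 22 gene lists were chosen with earlier results of these data known. Other genes named were chosen after their values were seen. Alternatives were DESeq2 1.42.0, other size factors, filters, halved counts, the replicate number, year or RNA integrity number in the fit, and each library left out.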

Additional observations from a re-analysis of the deposited data

How the results depend on the processing

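The count of genes called between heterozygous and wild-type samples stayed at 0 under every alternative except DESeq2 on the 5 libraries alone, which called 2, and leaving out 1 library, which gave 0 to 3 (3 without Het3). At an unadjusted p under 0.05 the count ran from 191 to 560. Departures from the midpoint came to 44 with DESeq2 on the 9 libraries, and to 0 to 9 when 1 library was left out (9 without Het3), with 431 to 1923 at an unadjusted p under 0.05. With the 5 libraries alone this contrast cannot be formed. No pigmentation-associated gene was called under any alternative, and the median of the interval genes ran from 0.01 to 0.08. With the replicate number as a block there were 0 calls in both comparisons, with 278 and 1074 genes at an unadjusted p under 0.05. The numbers are not known to mark a shared litter or day, and the correlations of same-numbered deviations were 0.16 and 0.09 over 2 pairs. On the 500 most variable genes the difference of distances was -0.23 (exact permutation p = 0.3). The median SD of the most variable genes ran from 1.12 to 2.05 without 1 library, the lowest without Het2. For 22 genes, those of smallest p, *TYR*, *RAB38*, *PRCP*, *CTSC*, *DLG2* and *PMEL*, no fold change changed sign in any alternative, whereas *ADISSP* did with the year as a factor (-0.05). The genes of smallest p were chosen without overlap between genotypes, so their sign without 1 library was largely fixed by that choice. *ADISSP* was not chosen in that way. The genes called in an alternative were *KLRF1-like* and *CAR13-like* with DESeq2 on the 5 libraries, and *LOC129334296*, *ADISSP* and an unnamed non-coding RNA gene without Het3. The comparison is limited by 3 against 2 embryos, for which an exact permutation p cannot go below 0.1, and by years that are not balanced between the genotypes. With the year in the fit, Het3 is the only heterozygote that informs the fold change.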

Other observations

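The other gene lists had no gene with an adjusted p under 0.05 in edgeR. Their medians reached -0.33 for Schwann cell markers (8 of 9 genes below 0) and 0.45 for cartilage and bone (6 of 7 genes above 0). The cell cycle list, with 19 genes, had a median log2 fold change of -0.01 and a range of -0.14 to 0.20, and its summed level was 1149 to 1206 CPM in the 5 embryos. The HOX list, 29 of whose 39 genes had enough counts, had a median of 0.06. *HOXC6* was its member with the smallest p, at 22.5 and 19.9 CPM in wild-type and 17.1, 15.1 and 18.4 CPM in heterozygous samples (-0.33 ± 0.15, SE, with an unadjusted p of 0.0487 and an adjusted p of 1 in edgeR). Its homozygous samples stood at 13.7 to 15.5 CPM.

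In the sterol synthesis list, with a median of -0.27 over 15 genes, *MSMO1*, a sterol oxidase, stood at 33.7 and 26.5 CPM in wild-type and at 19.97, 13.3 and 24.0 CPM in heterozygous samples (-0.66 ± 0.23, SE, with an unadjusted p of 0.0187 and an adjusted p of 1 in edgeR). *PDK1*, of the hypoxia list, stood at 36.5 and 35.6 CPM against 26.5, 26.1 and 30.5 CPM (-0.38 ± 0.16, SE). The interferon list had a median of -0.03, and its member with the smallest p, *USP18*, stood at 0.114 and 0.217 CPM in wild-type and 0.477, 0.502 and 0.4999 CPM in heterozygous samples. *CAR13-like* (*LOC129333964*), called by DESeq2 on the 5 libraries (adjusted p = 0.0004), stood at 15.5 and 19.8 CPM in wild-type, at 39.1, 42.0 and 34.2 CPM in heterozygous and at 21.1 to 67.2 CPM in homozygous samples.

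The scale placode list was highest in Het2, where *FGF20* stood at 2.43 CPM against 0.642 CPM or less in the other 4 embryos, and *EDA*, a ligand of placode formation, at 77.3 CPM against 45.6 to 53.1 CPM. The cartilage and bone list was highest in Het2 as well, with a score of 0.73 against -0.06 or less in the others. *CHAC1*, a stress gene, stood at 9.21 CPM in WT1 and at 1.00 CPM or less in the other 4. These values rest on single embryos.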
